A study of Homo sapiens with 9 samples.

Results

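Alternative last exons, retained introns and mutually exclusive exons were examined in K562 cells, an erythroleukaemia cell line, after knockdown of the RNA helicase DHX34 or of UPF1, the central helicase of nonsense-mediated decay (NMD). The members were the 215 events of these 3 kinds, out of 1456 splicing events of all kinds, that appeared in at least 1 of the 2 deposited event lists, which compare each knockdown with the control. They were thus selected on the PSI differences from the control that those lists rest on. They comprised 123 alternative last exon (AL) events in 83 genes, 61 retained intron (RI) events in 50 genes and 31 exclusive exon (MX) events in 28 genes, and 153 different genes in all. The DHX34 list held 57 AL, 11 RI and 6 MX events and the UPF1 list 86 AL, 54 RI and 25 MX events. Of these, 20 AL events, 4 RI events and no MX event stood in both. There were 3 groups of 3 libraries: cells given a scrambled control siRNA (SCR), a DHX34 siRNA pool or UPF1 siRNA. All cells went through transfection and were harvested on day 4, and the libraries were made from poly(A) RNA, so transcripts without a poly(A) tail were not sampled. The labels enter the control libraries as WT under treatment and spell the line K652, while the sample titles say K562 and SCR. The study describes the sequenced samples as biological replicates.

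An AL event is a choice between 2 terminal exons, each with its own poly(A) site, and it can change both the C-terminus of the protein and the 3' untranslated region. An RI event compares transcripts that keep an intron with transcripts that splice it out, and a kept intron often brings in a stop codon ahead of later exon junctions, which marks an mRNA for NMD. In an MX event a transcript carries either the upstream or the downstream exon of a pair, but not both. NMD degrades mRNAs that end translation too early, with UPF1 as its core factor and DHX34 as a factor that acts with it. Many genes for RNA-binding proteins make such transcripts and limit their own output through NMD. The measure throughout is PSI, percent spliced in, computed per library as the TPM of the first form divided by the TPM of both forms. The first form is the transcript group with the proximal last exon in AL events, with the intron in RI events and with the upstream exon in MX events. TPM is the level of a transcript scaled for its length and for the depth of the library.

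The splice sites of some members on which the results turn are shown here for the reader to compare, with GRCh38 coordinates and read 5' to 3' on the transcribed strand. A donor window holds 3 exon bases and 6 intron bases, and an acceptor window holds 20 intron bases and 3 exon bases. Capitals mark the first 2 and the last 2 bases of the intron. The first group gives introns that some transcripts keep, the second the acceptors of competing last exons and the third the acceptors of exclusive exons.
HNRNPH3 intron donor, chr10:68337331-68337339, plus strand: aagGTacct
HNRNPH3 intron acceptor, chr10:68338483-68338505, plus strand: cttaaaacatttttaaatAGgta
RPL10A intron donor, chr6:35468437-35468445, plus strand: gagGTgagt
RPL10A intron acceptor, chr6:35468779-35468801, plus strand: ctgtcgcttctctcccgcAGcag
RBMX intron donor, chrX:136875080-136875088, minus strand: atgGTaaga
RBMX intron acceptor, chrX:136872343-136872365, minus strand: catttatttaacttttgcAGgtt
SNHG29 intron donor, chr17:16439391-16439399, plus strand: ggtGTgcaa
SNHG29 intron acceptor, chr17:16440165-16440187, plus strand: taattgctatattcacctAGgtt
TRA2A intron donor, chr7:23522115-23522123, minus strand: aatGTatgg
TRA2A intron acceptor, chr7:23521838-23521860, minus strand: aatactgtcttctttgttAGgag
TPM3 proximal last exon acceptor, chr1:154159046-154159068, minus strand: cctctccgttgctgctgcAGagc
TPM3 distal last exon acceptor, chr1:154157719-154157741, minus strand: ctctcctttacccccattAGata
CNIH1 upstream exon acceptor, chr14:54436435-54436457, minus strand: ctgttttaattttattttAGatt
CNIH1 downstream exon acceptor, chr14:54432218-54432240, minus strand: ggcttgtgttttccttccAGctt
LDHA upstream exon acceptor, chr11:18399411-18399433, plus strand: aaagatttgatgtcttttAGgac
LDHA downstream exon acceptor, chr11:18400817-18400839, plus strand: attattccccttttctctAGact
Of the introns above, only that of RBMX lay across the annotated coding sequence of the spliced form of its event. The spliced forms of the others had no annotated coding sequence. Where those introns lie in coding transcripts of the same genes was not examined.

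An exclusive exon and an intron were short enough to be printed whole. The upstream exon of the DCTN2 pair is 6 bases long, in capitals here with 12 intron bases on each side. In XBP1, which encodes a transcription factor of the unfolded protein response, the 26 bases in capitals are removed from the mRNA in the transcript ENST00000344347, and this intron has neither GT nor AG at its ends. It is known as the intron cut out by the endonuclease IRE1 rather than by the spliceosome.
DCTN2 upstream exclusive exon, chr12:57538507-57538536, minus strand: ggaaaccacaagGAGCTGgtaagaagcctg
XBP1 intron of 26 bases, chr22:28796126-28796155, minus strand: ccGCAGCACTCAGACTACGTGCACCTCTgc

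The libraries held between 73478797 and 103625443 expected counts. DHX34 stood at 18.4, 19.4 and 18.2 TPM in SCR, 9.49, 9.40 and 11 TPM after its own knockdown and 23.0, 22.3 and 21.9 TPM after UPF1 knockdown. UPF1 stood at 46.4, 51.4 and 49.9 TPM in SCR, 52.7, 54.0 and 54.9 TPM after DHX34 knockdown and 23.2, 23.0 and 22.9 TPM after its own. Each target was thus lowest in its own knockdown, with no overlap with the other groups. All 8 K562 marker genes were above 1 TPM in every library, with a summed level of 14439 to 25377 TPM, while markers of other blood cells summed to 13.4 to 36.7 TPM. The DHX34 library of replicate 3 stood apart in intron retention, with a median PSI of 8.08% over 3868 annotated RI events, against 5.69 to 7.66% in the other 8 libraries. It also stood apart in gene counts. Chi-square per degree of freedom was 22.4 and 20.2 against the other DHX34 libraries, and 5.71 to 9.6 in all other pairs within a group. The part of this library in the differences below was not tested beyond leaving it out.

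Transcripts could be assigned to both forms by exact coordinates for 81 AL, 50 RI and 29 MX events, and by splice junctions alone for a further 36 AL and 6 RI events. The remaining 6 AL, 5 RI and 2 MX events had no match in the annotation used here. They lay in RHAG, NONO, ZNF160, TOMM7 and LINC00221 (AL), in FKBP1A, XBP1, CCNG1 and YARS1 (RI), and in THRAP3 and ENSG00000275895 (MX). Of the 160 events with an exact PSI, 158 had both forms together at 1 TPM or more on average and 118 at 5 TPM or more. The 2 events below 1 TPM were AL events of CCND2 and PRAF2. The median level of both forms together was 7.29 TPM for AL members, 34.5 TPM for RI members and 14.9 TPM for MX members. It was 3.64, 13.4 and 4.02 TPM for annotated events of each kind at 1 TPM or more, a limit not set on the member medians. Unless stated otherwise, shares and medians of annotated events below are also of those at 1 TPM or more. Members were not independent of each other, since 21 AL, 14 RI and 6 MX events used a transcript that another member of the same kind also used. HNRNPH1 alone gave 11 AL events and SNHG29 gave 10.

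The event lists were made by comparing each knockdown with SCR, so those differences chose the members and are given as a description without a test. In the DHX34 knockdown, the median difference in mean PSI from SCR was 1.25 percentage points for AL, 1.41 for RI and 1.01 for MX members. In the UPF1 knockdown it was 4.31 for AL, -2.80 for RI and 4.50 for MX members. Over all annotated events these medians were 0, save for 0.136 (DHX34) and 0.118 (UPF1) percentage points for RI events. The sign of the RI median in the UPF1 knockdown turned with the choice of events, being 0.610 when junctions alone defined the forms and 2.78 at a minimum of 5 TPM. Sizes differed more than signs did. The median absolute difference was 14.1 (AL), 3.06 (RI) and 4.75 (MX) percentage points after DHX34 knockdown, and 28.1, 10.8 and 19.8 percentage points after UPF1 knockdown.

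**Figure D1:**
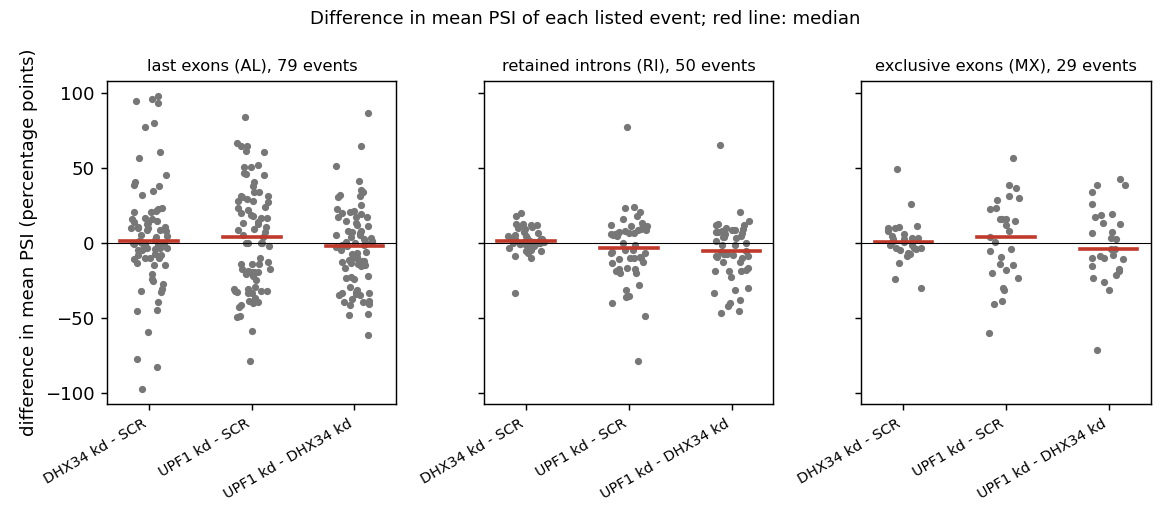
Difference in mean PSI, in percentage points, for each listed event with both forms together at 1 TPM or more (79 AL, 50 RI and 29 MX events), in the 3 comparisons of groups; each point is an event and the red line the median. AL events reached from -97.2 to 98.5 percentage points in the DHX34 knockdown, whereas RI events of that knockdown lay between -33.3 and 20.4.

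Read library by library, the 3 PSI values of the DHX34 knockdown did not overlap those of SCR for 25 of 78 AL members, 10 of 50 RI members and 5 of 29 MX members. Over all annotated events the same held for 9.85, 13.3 and 9.77%, and for 11% of the 3 kinds together, where it held for 40 of 157 members. After UPF1 knockdown it held for 46 of 79 AL, 41 of 50 RI and 24 of 29 MX members, against 14, 22.8 and 17.9% of annotated events. Together these were 111 of 158 members against 17.5%. At an adjusted p of at most 0.05 in limma on the log2 ratio of the 2 forms, 8 of 158 members passed in the DHX34 knockdown (0.279% of all 12171 events fitted) and 14 in the UPF1 knockdown (0.838%). As the rule used both contrasts, nothing is read from these shares.

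The knockdowns were also compared with each other, a contrast that the event lists do not hold, although its libraries are those that chose the members. UPF1 and DHX34 knockdown values did not overlap for 30 of 78 AL members (13.4% of annotated AL events), 36 of 50 RI members (18.5%) and 22 of 29 MX members (16%). Together this was 88 of 157 members, against 15.5% of all annotated events. In limma, 5 of 158 members passed at an adjusted p of at most 0.05, against 0.271% of all events, namely 3 RI events (HNRNPH3, RBMX and RPL10A) and 2 AL events (CIRBP and DTL). No MX member passed by limma, while 21 of 29 had an unadjusted p under 0.05, as did 24 of 79 AL and 31 of 50 RI members. Among all annotated events this share was 12.5% (AL), 12.6% (RI) and 13.7% (MX). With edgeR on the counts of the forms 41 of 158 members passed, against 1.96% of all events. As the libraries of this contrast also chose the members, nothing is read from these shares. The calls rested on small numbers: for CIRBP, HNRNPH3, RBMX and RPL10A the adjusted p of limma lay between 0.0793 and 0.174 whichever of the 6 libraries was left out. For DTL it remained under the threshold only without UPF1 replicate 1 (0.0230) and was otherwise 0.0549 to 0.128.

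The intron of HNRNPH3, a splicing regulator of the hnRNP H family, was kept less often after UPF1 knockdown than in the other groups. It is 1169 bases long and lies on chromosome 10, and the transcripts that define the event have no annotated coding sequence. PSI was 40.5, 40.8 and 55.1% in SCR, 39.2, 41.5 and 43.1% after DHX34 knockdown and 11.4, 10.3 and 8.64% after UPF1 knockdown. SCR and DHX34 libraries overlapped, and the UPF1 libraries lay below both. Between the knockdowns the log2 ratio of retained to spliced form differed by -2.61 ± 0.22 (SE), with a limma adjusted p of 0.0281. The spliced form carried the difference, at 1.47, 2.16 and 1.07 TPM in SCR, 1.89, 1.48 and 1.69 TPM after DHX34 knockdown and 13.5, 15.8 and 12.6 TPM after UPF1 knockdown. The retained form had 1.00 to 1.80 TPM over all 9 libraries. When every transcript with the same junction was counted as spliced, whatever its ends, the forms together had 48.7 instead of 7.08 TPM on average and the difference between the knockdowns was -2.87 instead of -31.2 percentage points (limma adjusted p = 0.0810), so the call was lost. The first value is thus that of a pair of minor HNRNPH3 transcripts.

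RPL10A, a protein of the large ribosomal subunit, showed little spread between the UPF1 libraries. PSI of its intron of 359 bases on chromosome 6 was 61.1, 63.0 and 70.6% in SCR, 61.6, 60.9 and 63.0% after DHX34 knockdown and 28.9, 29.2 and 28.9% after UPF1 knockdown. Both forms were transcripts without an annotated coding sequence. The retained form stood at 20.4, 19.9 and 23.4 TPM in SCR, 24.8, 23.2 and 26.5 TPM after DHX34 knockdown and 35.2, 33.9 and 33.6 TPM after UPF1 knockdown. The spliced form was at 13.0, 11.7 and 9.77 TPM, then 15.4, 14.9 and 15.6 TPM, and then 86.6, 82.4 and 82.7 TPM. Both forms were thus highest after UPF1 knockdown, the spliced form by more. The knockdowns differed by -1.98 ± 0.19 (SE) on the log2 scale of the ratio (limma adjusted p = 0.0313). Counting every transcript with the same junction brought the forms to 2098 TPM and the difference from -32.8 to 0.352 percentage points (limma adjusted p = 0.433), so the call was lost and the sign turned. A second RPL10A intron was listed, for which both assignments use the same transcripts. Its PSI was 70.5, 74.0 and 74.4% in SCR, 70.0, 70.3 and 74.4% after DHX34 knockdown and 51.8, 54.0 and 53.6% after UPF1 knockdown, with the UPF1 libraries again below all others.

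In RBMX, an X-linked gene for an RNA-binding protein of the hnRNP G family, 3 listed events met in the same region. This gene was chosen for description after its values were seen. The retained intron of 2740 bases had a PSI of 15.4, 21.5 and 21.0% in SCR, 24.8, 24.9 and 25.7% after DHX34 knockdown and 6.16, 6.65 and 7.51% after UPF1 knockdown. The 3 groups did not overlap, with DHX34 knockdown above and UPF1 knockdown below SCR. The knockdowns differed by -2.21 ± 0.20 (SE) on the log2 scale (limma adjusted p = 0.0310), and by -18.4 percentage points, or -9.90 when junctions alone defined the forms. By junctions the DHX34 knockdown lay 1.28 percentage points below SCR instead of 5.86 above. Here the retained form is annotated as an NMD target and the spliced form as coding, so the NMD form had the smaller share after UPF1 knockdown. Its own level was nevertheless 3.99, 3.94 and 4.61 TPM after UPF1 knockdown, against 1.84, 2.58 and 1.94 TPM in SCR. The spliced form stood at 10.1, 9.41 and 7.33 TPM in SCR and at 60.8, 55.3 and 56.7 TPM after UPF1 knockdown.

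The last exons of RBMX followed a graded order. PSI of the proximal last exon was 98.9, 98.8 and 98.5% in SCR, 93.4, 96.1 and 96.0% after DHX34 knockdown and 81.8, 80.3 and 78.4% after UPF1 knockdown. The groups did not overlap. The distal form, which is annotated as coding, stood at 2.91, 3.13 and 4.06 TPM in SCR, 18.7, 11.3 and 11 TPM after DHX34 knockdown and 52.0, 58.3 and 63.7 TPM after UPF1 knockdown. In the other RBMX last exon event the PSI differed from SCR by -14.2 percentage points after DHX34 knockdown and by -20.7 after UPF1 knockdown, or by -3.56 and -18.5 by junctions alone. For the first event the direct contrast of the knockdowns did not pass (-15 percentage points; limma adjusted p = 0.0658). Total RBMX counts differed little, by 0.11 ± 0.03 (SE) on the log2 scale between the knockdowns, and edgeR gave an adjusted p of 0.0186, above the threshold of 0.005 used for genes.

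SNHG29, a long noncoding RNA that hosts small nucleolar RNAs, held the RI event with the largest difference from SCR among those with both forms at 5 TPM or more. At 1.47 TPM, an RI event of PSME2 reached a slightly larger one after UPF1 knockdown (-78.5 against 77.6 percentage points). PSI of its intron of 791 bases on chromosome 17 was 17.3, 24.7 and 13.7% in SCR, 32.2, 28.4 and 30.9% after DHX34 knockdown and 100, 92.2 and 96.3% after UPF1 knockdown. All 3 groups were separate. The retained form stood at 9.99, 9.41 and 8.14 TPM in SCR, 14.5, 12.2 and 14.8 TPM after DHX34 knockdown and 12, 11.5 and 12.4 TPM after UPF1 knockdown. The spliced form stood at 47.7, 28.7 and 51.5 TPM in SCR, 30.5, 30.7 and 33.0 TPM after DHX34 knockdown and 0, 0.973 and 0.474 TPM after UPF1 knockdown, where it was lowest. The difference between the knockdowns was 65.6 percentage points, which missed the threshold on the log2 scale with a pseudocount of 0.1 TPM (limma adjusted p = 0.0787) and passed with 0.5 TPM (0.0125). The gene as a whole had another order, with mean CPM (gene counts scaled to library size) of 806 in SCR, 614 after DHX34 and 1133 after UPF1 knockdown. Between the knockdowns the log2 ratio of the counts was 0.88 ± 0.05 (SE), at an edgeR adjusted p of 1.96e-07. The pair of forms in the event made up 36.5 TPM on average, a small part of the gene. The second RI event of SNHG29 ran the other way after UPF1 knockdown. Its PSI was 74.5, 78.7 and 77.7% in SCR, 82.4, 73.1 and 79.0% after DHX34 knockdown and 57.3, 63.0 and 59.9% after UPF1 knockdown, and the difference between UPF1 knockdown and SCR was -16.9 percentage points, or -4.01 by junctions alone. In the AL event of SNHG29 with an exact PSI this difference was 34.1 percentage points, or 1.09 by junctions alone.

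TRA2A, a serine/arginine-rich splicing activator, gave 3 RI events and 2 MX events. PSI of its intron of 280 bases was 22.1, 38.1 and 17.9% in SCR, 31.4, 33.2 and 51.7% after DHX34 knockdown and 8.20, 9.56 and 10.2% after UPF1 knockdown. UPF1 libraries lay below all others, while SCR and DHX34 libraries overlapped. The spliced form was at 12.7, 13.4 and 13.6 TPM after UPF1 knockdown, against 3.25 to 5.15 TPM in SCR and 2.82 to 2.95 TPM after DHX34 knockdown. The knockdowns differed by -29.5 percentage points (limma adjusted p = 0.0787), or -23.0 without DHX34 replicate 3, the library with the highest retention. Against SCR the DHX34 knockdown lay 12.8 percentage points higher, or 6.31 without that library. In an exclusive exon pair of TRA2A, at a mean of only 1.07 TPM for both forms, PSI was 100, 48.8 and 100% in SCR, 82.0, 100 and 100% after DHX34 knockdown and 23.2, 27.6 and 18.2% after UPF1 knockdown. Its downstream form is an annotated NMD target. The other MX event (2.37 TPM) lay 23.6 percentage points below SCR after DHX34 knockdown. The other RI events lay 10.5 above (2.88 TPM) and 8.53 below SCR (3.54 TPM). In each of these events the UPF1 libraries lay below all others.

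Other introns were kept more often after UPF1 knockdown. GNPTG encodes the gamma subunit of the phosphotransferase that tags lysosomal enzymes, and PSI of its intron of 79 bases was 12.2, 11.8 and 8.17% in SCR, 12.2, 19.5 and 9.22% after DHX34 knockdown and 34.4, 37.3 and 31.5% after UPF1 knockdown. YDJC, which was chosen after its values were seen, had 3 events that shared 1 transcript form. PSI of its intron of 194 bases was 20, 19.0 and 18.5% in SCR, 19.8, 18.5 and 21.9% after DHX34 knockdown and 36.8, 35.3 and 33.4% after UPF1 knockdown. In both genes the UPF1 libraries stood above all others. By junctions alone the difference between the knockdowns was 14.6 instead of 20.8 percentage points in GNPTG and 6.54 instead of 15.1 in YDJC. The other two YDJC events differed in direction. One had a PSI of 13.1, 12.7 and 13.0% in SCR and 21.2, 21.4 and 21.5% after UPF1 knockdown. The other, between transcripts that are both of the retained intron class, had 50.8, 51.4 and 48.9% in SCR, 54.3, 55.9 and 56.1% after DHX34 knockdown and 35.4, 38.8 and 37.3% after UPF1 knockdown. By junctions alone its difference between UPF1 knockdown and SCR went from -13.2 to 0.610 percentage points.

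The same order was seen in some further introns, again named after their values were seen. HRAS, a small GTPase, had a PSI of 8.51, 13.7 and 15% in SCR, 10.9, 13.6 and 12.8% after DHX34 knockdown and 23.3, 24.4 and 27.1% after UPF1 knockdown. GFUS, the enzyme that makes GDP-fucose, had a PSI of 8.99% ± 0.946 in SCR, 10.1% ± 1.44 after DHX34 knockdown and 22.7% ± 1.71 (SD, n = 3) after UPF1 knockdown. DDX39B, an RNA helicase of spliceosome assembly and mRNA export, had a PSI of 7.81, 8.44 and 6.61% in SCR, 9.31, 8.50 and 12.5% after DHX34 knockdown and 17.0, 17.0 and 17.7% after UPF1 knockdown. In all of these the UPF1 libraries lay above the DHX34 libraries, and none passed in the direct comparison (limma adjusted p = 0.0927 for HRAS, 0.0787 for GFUS and 0.223 for DDX39B). For HRAS the difference of 12.5 percentage points became 5.68 by junctions alone.

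PHPT1, a histidine phosphatase, and RPL28, a protein of the large ribosomal subunit, were higher in both knockdowns on average. RPL28 had a PSI of 32.1, 41.3 and 57.3% in SCR, 64.9, 71.8 and 55.3% after DHX34 knockdown and 71.3, 57.9 and 74.8% after UPF1 knockdown. Only the UPF1 libraries were clear of SCR. PHPT1 had 24.8, 22.6 and 16.2% in SCR, 32.0, 22.1 and 46.0% after DHX34 knockdown and 41.7, 46.5 and 37.2% after UPF1 knockdown. Its difference between DHX34 knockdown and SCR, 12.1 percentage points, was 5.82 without DHX34 replicate 3. The direct contrast did not pass for either gene (limma adjusted p = 0.846 for RPL28 and 0.670 for PHPT1).

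WASH2P and TMEM222 were lower after UPF1 knockdown on average. The pseudogene WASH2P had a PSI of 64.3, 61.7 and 56.1% in SCR, 63.0, 59.9 and 68.0% after DHX34 knockdown and 43.7, 40.6 and 38.7% after UPF1 knockdown, with the UPF1 libraries below all others. TMEM222, a membrane protein gene, had 31.3, 39.2 and 13.2% in SCR, 12.4, 19.4 and 32.6% after DHX34 knockdown and 9.74, 14.1 and 4.04% after UPF1 knockdown. Here the groups overlapped, and by junctions alone the difference between UPF1 knockdown and SCR went from -18.6 to -0.490 percentage points.

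**Figure D2:**
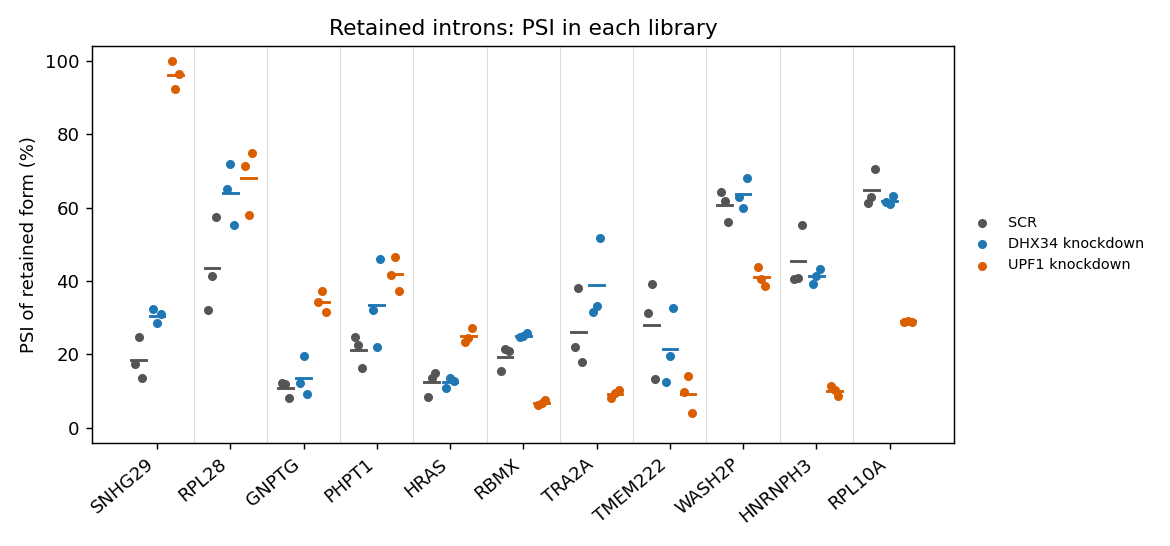
PSI of the retained form, in percent, of 11 RI events in each library; points are libraries and bars group means, and genes are ordered by the difference between UPF1 knockdown and SCR. UPF1 libraries stand highest in SNHG29 (92.2 to 100%) and below all others in RPL10A (28.9 to 29.2%), HNRNPH3, WASH2P, TRA2A and RBMX.

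The DHX34 list held 11 RI events, of which 5 had an exact PSI. SRRM2, a large serine/arginine-rich protein of the spliceosome, had the largest difference from SCR among them. Its PSI was 15.6, 17.8 and 11% in SCR, 29.2, 25 and 44.2% after DHX34 knockdown and 21.8, 24.8 and 28.1% after UPF1 knockdown. Both knockdowns lay above SCR and overlapped each other. By junctions alone the difference from SCR was 20.4 instead of 18 percentage points after DHX34 knockdown and 15.8 instead of 10.1 after UPF1 knockdown. The spliced form, annotated as an NMD target, stood at 31.7, 28.9 and 28.8 TPM in SCR, 13.4, 15.1 and 14.2 TPM after DHX34 knockdown and 21.6, 17.6 and 13.5 TPM after UPF1 knockdown. RBM3, a cold-inducible RNA-binding protein, was in both lists, with a PSI of 17.8, 18.6 and 16.1% in SCR, 33.8, 29.3 and 28.5% after DHX34 knockdown and 25.4, 19.3 and 25.1% after UPF1 knockdown. Its 3 groups were separate, with DHX34 knockdown highest. In TMEM41B, an endoplasmic reticulum scramblase, the PSI was 100% in all SCR libraries and 95.9, 92.4 and 95.8% after DHX34 knockdown, with 89.9, 100 and 90.8% after UPF1 knockdown. By junctions alone SCR had 93.8, 98.6 and 95.7%, which overlapped the DHX34 libraries, and the difference between DHX34 knockdown and SCR was -1.38 instead of -5.35 percentage points. The remaining 2 events were both in ISYNA1, inositol-3-phosphate synthase, where the groups overlapped.

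Across RI members, a higher or lower share was not the same as more or less of the retained transcript. After UPF1 knockdown the mean level of the retained form was above SCR in all 24 members with a higher PSI, and also in 19 of the 26 members with a lower PSI. In those 26 the spliced form was above SCR in every case. Both forms were above SCR in 29 of 50 members and none had both below. After DHX34 knockdown the retained form was above SCR in 31 of the 34 members with a higher PSI. These contrasts chose the members, and the same counts were not made over all annotated RI events. The counts are thus a description of the members only. The share of all TPM assigned to transcripts of the retained intron class was 4.08 to 4.25% in SCR and 4.60 to 4.70% after UPF1 knockdown. After DHX34 knockdown it was 4.30, 4.28 and 4.65%, the last in replicate 3, the library with the highest retention. The part of this share in the members' values was not tested.

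AL members spanned a wider range than the other kinds, and so did their replicates. In 30 of 80 AL members (37.5%) the libraries of at least 1 group were more than 50 percentage points apart, against 9.36% of annotated AL events. The same held for 2 of 50 RI members (4%, against 1.94% of annotated RI events) and 5 of 29 MX members (17.2%, against 6.98%). In 13 of 80 AL members a group spanned more than 90 percentage points, against 149 of 5982 annotated AL events. AHSA1, which encodes an activator of the chaperone HSP90, shows the pattern. Its PSI was 0% in all SCR libraries, 99.3, 96.6 and 99.4% after DHX34 knockdown and 0, 98.2 and 96.3% after UPF1 knockdown. The proximal form was listed at 0 TPM in all SCR libraries and in 1 UPF1 library, and at 8.31 to 13.1 TPM in the others, while the distal form never passed 0.375 TPM. ANKRD10, an ankyrin repeat protein, had a PSI of 6.31, 100 and 10.4% in SCR, 100% in all DHX34 libraries and 0.897, 100 and 100% after UPF1 knockdown. Its distal form was listed at 0 TPM in 6 libraries and stood at 13.7, 11.1 and 73.8 TPM in the other 3. In both genes 1 form was listed at 0 in some libraries of a group and was abundant in others of the same group.

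Several more AL events had such values. RPS6KB1, the kinase S6K1, had a PSI of 0, 100 and 0% in SCR, 99.1 and 98.4% in the DHX34 libraries where it was defined and 97.9, 97.7 and 100% after UPF1 knockdown. DEF8 had 15.4, 0 and 83.8% in SCR, 0, 0 and 100% after DHX34 knockdown and 0% in all UPF1 libraries. Its difference between UPF1 knockdown and SCR was -33.1 percentage points, or -4.14 by junctions alone, and that between DHX34 knockdown and SCR went from 0.242 to -33.1 without DHX34 replicate 3. EIF3K, a subunit of translation initiation factor eIF3, had 52.0, 87.8 and 0% in SCR, 90.6, 93.1 and 0% after DHX34 knockdown and 67.2, 0 and 0% after UPF1 knockdown. All 3 of these overlapped between the groups. In another EIF3K event the proximal last exon had 100% in all SCR libraries and 48.6, 23.7 and 80.4% after UPF1 knockdown, which did not overlap. TANGO2 had 0% in all SCR libraries, 48.4, 55.9 and 0% after DHX34 knockdown and 72.0, 58.5 and 70.6% after UPF1 knockdown. By junctions alone its difference between UPF1 knockdown and SCR was 12.5 instead of 67.0 percentage points.

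**Figure D3:**
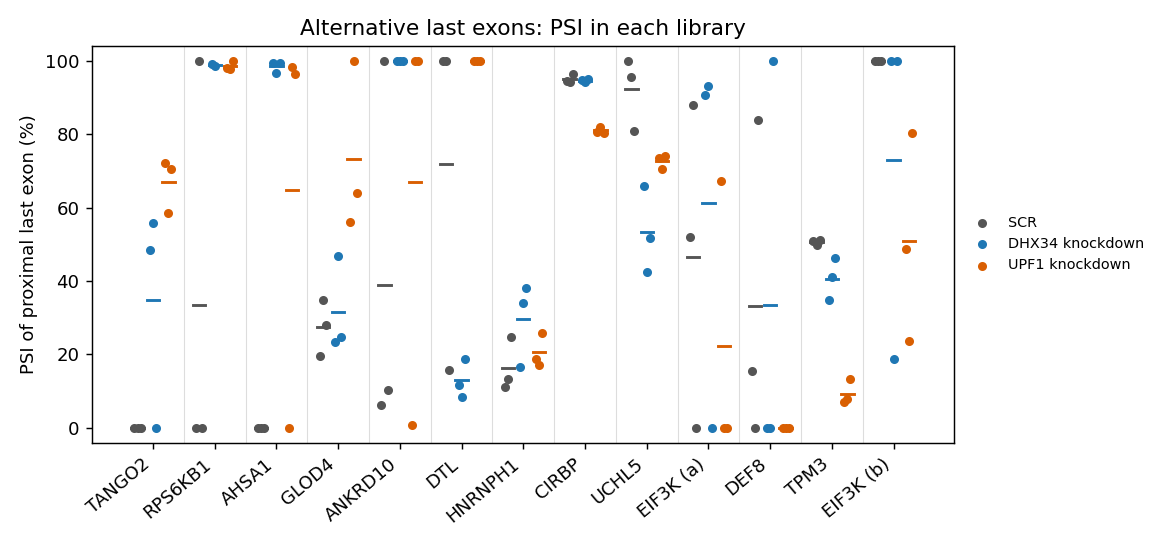
PSI of the proximal last exon, in percent, of the named AL events with an exact PSI and of CIRBP and DTL in each library; points are libraries and bars group means. Several events jump between 0 and 100% within a group, as in ANKRD10 and EIF3K, whereas the libraries of a group lie close together in CIRBP and TPM3.

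Other last exon events had even replicates. TPM3, a tropomyosin, had a PSI of 50.9, 49.8 and 51.0% in SCR, 34.7, 41.1 and 46.1% after DHX34 knockdown and 6.92, 7.85 and 13.2% after UPF1 knockdown. All 3 groups were separate. The distal form is annotated as an NMD target and stood at 5.43, 5.71 and 4.88 TPM in SCR, 6.38, 5.19 and 5.90 TPM after DHX34 knockdown and 28.4, 35.8 and 33.1 TPM after UPF1 knockdown. The knockdowns differed by -31.3 percentage points (limma adjusted p = 0.0665, and 0.0216 with a pseudocount of 0.5 TPM). When all transcripts with these junctions were counted, the difference was -0.211 percentage points.

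CIRBP, a cold-inducible RNA-binding protein related to RBM3, was called between the knockdowns and was chosen after its values were seen. PSI of the proximal last exon was 94.6, 94.2 and 96.3% in SCR, 94.7, 94.1 and 94.9% after DHX34 knockdown and 80.7, 82.0 and 80.3% after UPF1 knockdown. SCR and DHX34 libraries overlapped and the UPF1 libraries lay below both. The log2 ratio of proximal to distal form differed by -2.02 ± 0.20 (SE) between the knockdowns (limma adjusted p = 0.0341). The distal form stood at 5.51, 6.06 and 3.69 TPM in SCR, 4.95, 5.86 and 5.19 TPM after DHX34 knockdown and 23.9, 22.4 and 23.2 TPM after UPF1 knockdown. The proximal form, by contrast, was between 89.2 and 102 TPM in all 9 libraries. By junctions alone the difference was -16.0 instead of -13.6 percentage points. Both last exons belong to transcripts annotated as coding, 1880 bases apart. The gene's total counts were higher after UPF1 than after DHX34 knockdown, by 0.34 ± 0.04 (SE) on the log2 scale, and edgeR gave an adjusted p of 5.99e-05.

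DTL, a substrate receptor of the ubiquitin ligase CRL4, was the other AL event called, at a mean of only 2.12 TPM for both forms. PSI was 100, 100 and 15.8% in SCR, 11.6, 8.54 and 18.7% after DHX34 knockdown and 100% in all UPF1 libraries. One SCR library thus stood with the DHX34 libraries. The log2 ratio differed by 6.19 ± 0.47 (SE) between the knockdowns (limma adjusted p = 0.0235), or 87.1 percentage points. By junctions alone the forms had 25.3 TPM and the difference was 9.33 percentage points (limma adjusted p = 0.0160).

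GLOD4 and UCHL5 also had groups that did not overlap. GLOD4, a glyoxalase domain protein, had a PSI of 19.7, 34.7 and 28% in SCR, 23.4, 46.7 and 24.7% after DHX34 knockdown and 56.0, 100 and 63.9% after UPF1 knockdown, and its proximal form is annotated as an NMD target. UCHL5, a deubiquitinase of the proteasome, was in the DHX34 list and had a PSI of 100, 95.5 and 81.0% in SCR, 65.7, 42.5 and 51.8% after DHX34 knockdown and 73.5, 70.6 and 74.0% after UPF1 knockdown. The DHX34 libraries of UCHL5 were lowest and SCR highest, without overlap. By junctions alone the DHX34 difference from SCR was -6.28 instead of -38.8 percentage points.

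In some last exon events both knockdowns lay on the same side of SCR, among them SHMT2 and COCH, which both lists held. SHMT2, mitochondrial serine hydroxymethyltransferase, had a PSI of 28.6, 45.3 and 38.8% in SCR, 52.0, 60.0 and 63.0% after DHX34 knockdown and 64.7, 53.9 and 60.1% after UPF1 knockdown. COCH had 81.8, 76.3 and 70.1% in SCR, 60.1, 63.5 and 64.3% after DHX34 knockdown and 64.4, 66.6 and 67.5% after UPF1 knockdown. THOC2, the scaffold of the THO mRNA export complex, was in the DHX34 list and had 37.6, 46.0 and 30.4% in SCR, 62.6, 57.6 and 58.4% after DHX34 knockdown and 46.6, 65.5 and 61.7% after UPF1 knockdown. Knockdown libraries of these 3 genes, which were chosen after their values were seen, did not overlap SCR. By junctions alone the UPF1 libraries of THOC2 (25.1, 39.8 and 38.5%) overlapped SCR (20.9, 27.4 and 18.8%), with a difference of 12.1 instead of 20 percentage points, and that of COCH was -6.36 instead of -9.90. Both comparisons share the SCR libraries, so the common direction is not independent evidence.

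HNRNPH1, a close relative of HNRNPH3, gave 11 AL events, of which 1 had an exact PSI. That event had a PSI of 11, 13.2 and 24.8% in SCR, 16.6, 34.0 and 38.1% after DHX34 knockdown and 18.8, 17.2 and 26.0% after UPF1 knockdown. The groups overlapped. In the other 10 the PSI by junctions was 0 or 100% in every library. Events with a value by junctions alone numbered 36 among the AL members, in 17 genes, with 21 different pairs of junctions. Their values did not overlap SCR in 15 after DHX34 knockdown (11.8% of annotated AL events by the same measure) and in 18 after UPF1 knockdown (15.4%). As the rule used both contrasts, nothing is read from these counts. The 10 HNRNPH1 events were the only ones of the 36 that stood at 0 or 100% throughout (27.8%, against 8.72% of annotated AL events).

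MX members were nearly all from the UPF1 list, and the junctions that define them left no choice of transcripts, so exact and junction values were identical for all 29. PFDN5, a subunit of the chaperone prefoldin, had the largest difference among those above 5 TPM. PSI of its upstream exon of 103 bases was 26.5, 39.4 and 40.2% in SCR, 23.7, 35.2 and 28.6% after DHX34 knockdown and 65.3, 73.3 and 78.5% after UPF1 knockdown. UPF1 libraries lay above all others. The form with this exon is annotated as an NMD target and stood at 1.38, 2.07 and 1.6 TPM in SCR, 0.5, 0.949 and 0.922 TPM after DHX34 knockdown and 8.42, 8.44 and 8.67 TPM after UPF1 knockdown. The knockdowns differed by 43.2 percentage points (limma adjusted p = 0.0670, and 0.0226 with a pseudocount of 0.5 TPM).

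CNIH1, a cargo receptor of the secretory pathway, showed the same order at a higher level. PSI of its upstream exon of 69 bases was 19.7, 22.1 and 27.9% in SCR, 18.2, 17.6 and 25.1% after DHX34 knockdown and 53.4, 44.3 and 42.3% after UPF1 knockdown. The NMD form with this exon was at 8.53, 8.71 and 12.1 TPM in SCR, 6.93, 6.68 and 9.20 TPM after DHX34 knockdown and 25.3, 22.1 and 21.9 TPM after UPF1 knockdown. The coding form with the downstream exon of 113 bases lay between 22.1 and 34.7 TPM in all libraries. The direct contrast did not pass (26.3 percentage points; limma adjusted p = 0.0853), whereas the gene's counts were higher after UPF1 than after DHX34 knockdown by 0.28 ± 0.04 (SE) on the log2 scale, with an adjusted p of 0.000227 from edgeR.

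In DCTN2, dynamitin of the dynactin complex, the upstream exon of 6 bases stands against a downstream exon of 95 bases. PSI was 97.2, 93.2 and 98.2% in SCR, 98.3, 94.8 and 100% after DHX34 knockdown and 52.9, 71.9 and 74.0% after UPF1 knockdown. The downstream form, an annotated NMD target, had 0.445, 0.864 and 0.324 TPM in SCR, 0.469, 1.03 and 0 TPM after DHX34 knockdown and 4.33, 5.30 and 3.77 TPM after UPF1 knockdown. UPF1 libraries were thus separate from both other groups. MICOS10, a subunit of the mitochondrial contact site complex, had a PSI of 26.3, 15.4 and 24.2% in SCR, 18.6, 13.2 and 22.5% after DHX34 knockdown and 57.5, 39.2 and 59.8% after UPF1 knockdown, again with the UPF1 libraries above all others.

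TBRG1 and NPIPA9 had values that differed within a group. TBRG1 had a PSI of 94.7, 94.7 and 93.3% in SCR, 73.4, 75.8 and 95.2% after DHX34 knockdown and 67.0, 72.7 and 48.8% after UPF1 knockdown. NPIPA9, a member of a family of near-identical duplicated genes whose reads are hard to place, had 0% in all SCR libraries, 44.1, 0 and 34.5% after DHX34 knockdown and 32.4, 30.1 and 25% after UPF1 knockdown. In both genes 1 or more DHX34 libraries stood with SCR and the UPF1 libraries were apart from it.

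Abundant mRNAs could hold small shares with little spread, as in LDHA and CLNS1A, which were chosen after their values were seen. LDHA, lactate dehydrogenase A, had a PSI of 97.8, 97.7 and 98.0% in SCR, 96.9, 96.7 and 95.9% after DHX34 knockdown and 88.9, 89.1 and 88.2% after UPF1 knockdown. The 3 groups were separate. The downstream form, an annotated NMD target, stood at 6.58, 7.13 and 6.12 TPM in SCR, 9.34, 10.7 and 11.9 TPM after DHX34 knockdown and 36.1, 33.9 and 35.1 TPM after UPF1 knockdown, beside 262 to 309.9 TPM of the coding form. The log2 ratio differed by -1.81 ± 0.21 (SE) between the knockdowns (limma adjusted p = 0.0578). CLNS1A, a chaperone of spliceosomal snRNP assembly, had a PSI of 96.5, 99.4 and 97.7% in SCR, 98.9, 99.8 and 98.0% after DHX34 knockdown and 84.4, 83.0 and 82.9% after UPF1 knockdown. DIABLO, an antagonist of apoptosis inhibitors, had 23.6, 27.5 and 31.0% in SCR, 22.7, 21.9 and 23.8% after DHX34 knockdown and 42.5, 41 and 42.8% after UPF1 knockdown. The UPF1 libraries of both lay apart from all others.

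**Figure D4:**
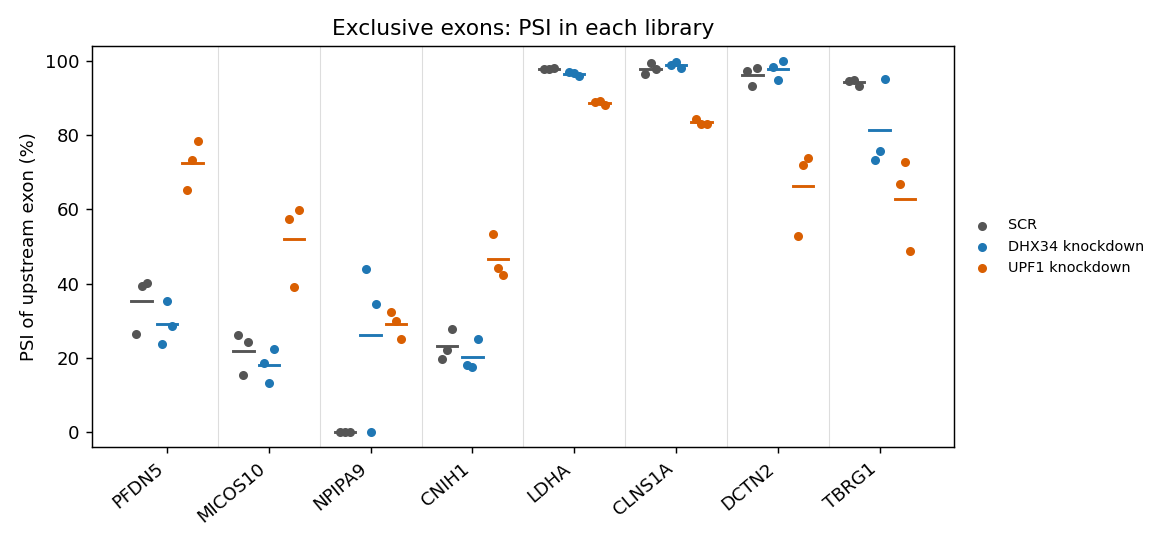
PSI of the upstream exon, in percent, of the named MX events and of LDHA and CLNS1A in each library; points are libraries and bars group means. UPF1 libraries lie above both other groups in PFDN5, MICOS10 and CNIH1, and below them in TBRG1, DCTN2, CLNS1A and LDHA (88.2 to 89.1%).

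The 6 MX events of the DHX34 list were in SLBP, MACROH2A1, PTGES3, ISYNA1, METTL1 and ENSG00000275895, and 5 had a PSI. SLBP, the histone mRNA stem-loop binding protein, had 58.1, 56.2 and 60.4% in SCR, 67.1, 72.1 and 66.2% after DHX34 knockdown and 60.6, 60.1 and 56.0% after UPF1 knockdown. Only the DHX34 libraries were apart from SCR. MACROH2A1, a histone variant with a known pair of exclusive exons, had 80.7, 79.2 and 78.8% in SCR, 69.9, 72.5 and 72.0% after DHX34 knockdown and 75.4, 73.1 and 75.7% after UPF1 knockdown, with all groups separate. PTGES3, the HSP90 co-chaperone p23, had 21.1, 24.6 and 21.5% in SCR, 30.7, 27.1 and 34.6% after DHX34 knockdown and 21.5, 28.7 and 30.4% after UPF1 knockdown, and UPF1 libraries overlapped both others. Differences from SCR were smaller here than in the UPF1 list, at 5.90 to 11.6 percentage points after DHX34 knockdown.

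Annotation set 1 form as an NMD target and the other as coding in 26 members. The NMD form had a larger share after UPF1 knockdown than in SCR in 24 of the 26 and a smaller one in 2. Among 1096 annotated events of this sort it was larger in 701 (64.0%) and smaller in 292. Percentages of annotated events here also count events without any difference, of which the members had none. The contrast chose the members, so the count is a description. After DHX34 knockdown it had a larger share than in SCR in 13 of 26 and a smaller one in 13. Of 1091 annotated events it was larger in 518 (47.5%) and smaller in 453. Between the knockdowns, the NMD form had a larger share after UPF1 than after DHX34 knockdown in 23 of 26 members and a smaller one in 3. Of 1096 annotated events it was larger in 669 (61.0%) and smaller in 321. The libraries of this contrast also chose the members, so this count too is a description. By kind, the 23 were all 13 MX members, 5 of 6 AL members and 5 of 7 RI members. The shares of annotated events were 64.9% (MX), 57.8% (AL) and 60.2% (RI). MX members after DHX34 knockdown had a larger NMD share than SCR in 3 of 13, with a median difference of -2.97 percentage points. Among 408 annotated MX events this held for 194 (47.5%), while 171 had a smaller share, with a median of 0. As the rule used this contrast too, nothing is read from the count. Over the whole transcriptome, the NMD class took 2.17 to 2.24% of TPM in SCR, 2.25 to 2.32% after DHX34 knockdown and 2.98 to 3.01% after UPF1 knockdown.

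**Figure D5:**
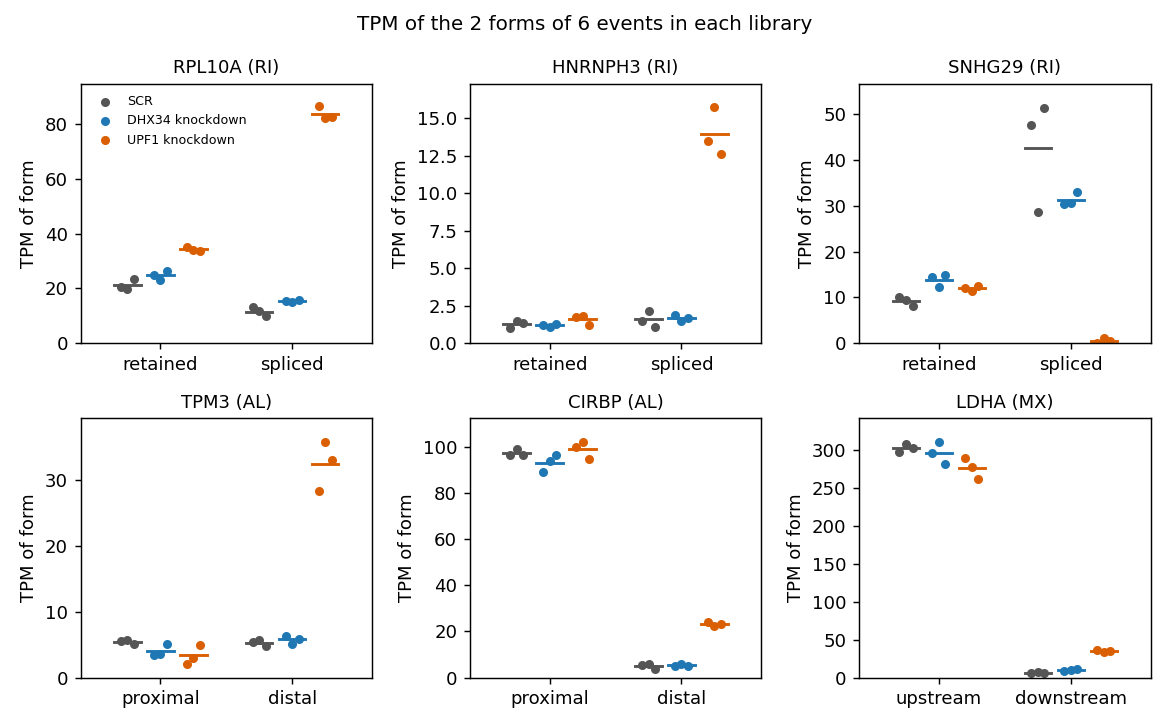
TPM of the 2 forms of 6 events in each library; points are libraries and bars group means, with a separate axis for each event. In RPL10A, HNRNPH3, TPM3, CIRBP and LDHA the form on the right is highest after UPF1 knockdown, while in SNHG29 the spliced form is at 0.973 TPM or less there.

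Sequence and position were not used to choose the members. RI member introns had a median length of 286.5 bases and a median GC content of 56.3%, against 241 bases and 55.8% for the 3874 annotated RI events at 1 TPM or more. Their ends were GT and AG in 49 of 50, against 96.8%. The exception was an intron of the noncoding gene ENSG00000228327 on chromosome 1, which starts with TT in the genome. The intron lay outside any annotated coding sequence of the spliced form in 25 of 50 RI members (50%), against 22.6% of annotated RI events. These include spliced forms with no annotated coding sequence at all. The spliced form was neither coding nor an NMD target in 16 of 50 members (32%), against 11.6%. The shares are thus not those of intron position alone. Of the 25 across coding sequence, 18 held an in-frame stop (72%, against 79.6%), 5 shifted the frame without a stop and 1 kept it.

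The 2 exons of MX members differed in length by a multiple of 3 in 7 of 29 (24.1%), against 41% of annotated MX events. Not all MX forms have an annotated reading frame, since 5 upstream and 8 downstream forms were neither coding nor NMD targets. The gap between them had a median of 2032 bases, against 2846 bases. The starts of the competing last exons of AL members lay a median of 2425 bases apart, against 4370 bases. The poly(A) signal AATAAA was searched on the transcribed strand only, in the last 40 bases of each last exon. It was found for 16 of 81 proximal and 18 of 81 distal last exons (19.8 and 22.2%), against 25 and 28.3% of annotated AL events. A match is a description of these letters and no proof of a site.

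The size of many differences depended on which transcript ends were counted. Counting every transcript with the event's junctions, in place of those with its exact coordinates, made the difference between UPF1 knockdown and SCR more than 1.5 times smaller in 23 of 79 AL members and 17 of 47 RI members, and larger to that degree in 0 and 1. The median absolute difference then went from 28.1 to 18.5 percentage points for AL members and from 10.1 to 6.57 for these RI members. For DHX34 knockdown it went from 14.1 to 7.72 for AL members and from 3.07 to 2.07 for RI members. The sign of the difference between UPF1 knockdown and SCR turned in 2 AL and 4 RI members. In 41 of these 79 AL and 13 of these 47 RI members both assignments used the same transcripts, so that the values could not differ. The introns printed above of SNHG29 and TRA2A are of this kind, as is the PHPT1 intron.

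Counts of the whole genes were compared to show where the genes that hold the events differ in level. In bulk RNA a lower level per cell and fewer cells cannot be told apart. Of 151 host genes tested by edgeR at an adjusted p of at most 0.005, 45 were higher after UPF1 than after DHX34 knockdown and 7 lower, against 9.89 and 7.47% of all genes tested. SNHG29, RBM3 and DIABLO were among the higher genes, with log2 fold changes of 0.88 ± 0.05, 0.41 ± 0.03 and 0.47 ± 0.05 (SE). In the contrasts that chose the members, 5 host genes were higher and 19 lower after DHX34 knockdown than in SCR (5.54 and 4.86% of all genes), and 41 higher and 29 lower after UPF1 knockdown (12.4 and 12.9%). Of the genes with an event called between the knockdowns, CIRBP and HNRNPH3 also differed in count (log2 fold changes 0.34 ± 0.04 and 0.18 ± 0.03 (SE)), while RBMX, RPL10A and DTL did not pass.

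Genes for cleavage and polyadenylation factors, which select the 3' ends that AL events compare, were followed as a list of 20, all of which could be tested. After UPF1 knockdown 8 were lower than in SCR and none higher at an adjusted p of at most 0.005 by edgeR (12.9 and 12.4% of all genes), among them CSTF1 (log2 fold change -0.25), SSU72 (-0.22) and CLP1 (-0.22). After DHX34 knockdown CPSF1, a subunit of the cleavage and polyadenylation specificity factor, was higher (0.25) and SSU72, a phosphatase of RNA polymerase II, lower (-0.18), against 5.54 and 4.86% of all genes. Between the knockdowns 4 were lower after UPF1 than after DHX34 knockdown, namely CPSF1 (-0.19), RBBP6 (-0.24), the poly(A) polymerase PAPOLA (-0.16) and CLP1 (-0.23), and none was higher (7.47 and 9.89% of all genes). The list's median log2 fold change was -0.06, -0.10 and -0.05 in these comparisons, against 0.02, 0.02 and 0.01 over all genes. With counts scaled for transcript length the calls were 0 after DHX34 knockdown, 2 after UPF1 knockdown and 0 between the knockdowns.

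Genes of the IRE1 and XBP1 branch of the unfolded protein response were followed as a list of 10 because XBP1 gave 2 listed RI events. After UPF1 knockdown 4 were higher than in SCR and 2 lower by edgeR (12.4 and 12.9% of all genes). The higher genes were ERN1, which encodes IRE1 (log2 fold change 0.59), the degradation factor EDEM1 (0.59), HERPUD1 (0.29) and the co-chaperone DNAJC3 (0.21), and the lower ones were SEC61B (-0.24) and SDF2L1 (-0.18). After DHX34 knockdown only EDEM1 passed (0.27, higher, as did 5.54% of all genes). Between the knockdowns ERN1 (0.36), EDEM1 (0.34) and HERPUD1 (0.26) were higher after UPF1 knockdown and none was lower (9.89 and 7.47% of all genes). The list's median log2 fold change was 0.06, 0.07 and 0.06 in DHX34 against SCR, UPF1 against SCR and UPF1 against DHX34, while that over all genes was 0.02, 0.02 and 0.01. With counts scaled for transcript length these became 3 calls after UPF1 knockdown and 0 in the other comparisons.

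Neither XBP1 event could be matched to the annotation, so its 7 transcripts in the deposited tables were read directly, and 3 are given in full, a choice made after seeing the data. ENST00000344347, which lacks the 26 bases printed above, was listed at 0 TPM in all SCR libraries and stood at 5.62, 4.01 and 4.80 TPM after DHX34 knockdown and 1.85, 4.10 and 5.65 TPM after UPF1 knockdown. ENST00000611155 showed another order, with 4.30, 5.34 and 7.80 TPM in SCR, listed at 0 in all DHX34 libraries and 9.10, 6.15 and 4.75 TPM after UPF1 knockdown. The main transcript ENST00000216037 had 57.7 to 58.6 TPM in SCR, 64.2 to 66.6 TPM after DHX34 knockdown and 59.4 to 60.4 TPM after UPF1 knockdown. The DHX34 libraries were thus separate from SCR in these 3 transcripts and overlapped SCR in the other 4. Of those, ENST00000482720 had 4.18 to 9.53 TPM in SCR and 5.66 to 15.1 TPM after DHX34 knockdown, and the rest stayed at 1.51 TPM or less in all libraries. How far reads were shared between these transcripts was not tested.

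The deposited event lists were filtered on PSI difference, under an older annotation than the one used here. By the PSI computed here, listed events nevertheless ranged down to small differences. Among those with an exact PSI, the smallest absolute differences from SCR in the DHX34 list were 0.0460 (AL), 5.35 (RI) and 5.90 (MX) percentage points, and in the UPF1 list 0.131, 0.493 and 9.12. Values under 5 percentage points were found for 2 AL events of the DHX34 list and for 1 AL and 3 RI events of the UPF1 list. On the other side, 1778 AL, 632 RI and 625 MX annotated events outside the DHX34 list differed from SCR by 5 percentage points or more. Outside the UPF1 list these numbered 1906, 766 and 709. The lists also set limits on p and TPM, whereas these counts used none on p and a minimum of 1 TPM for both forms together.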

How the data were processed

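RNA-seq of poly(A) RNA was available for 9 libraries in 3 groups of 3. The authors quantified transcripts with Salmon, with GC bias correction, against Ensembl GRCh38 cDNA and noncoding RNA sequences of a release older than the annotation used here. The deposited tables give an expected count and a TPM value (scaled for transcript length and library depth) per transcript and library. Salmon, sleuth and GRCh38 are named in the submitters' processing notes. The authors also deposited their own comparisons with SCR: SUPPA2 event lists filtered on p, PSI difference and TPM, and sleuth gene tables. Of the event lists only the event identifiers were used, and no value of these comparisons was read.

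The forms of each event were rebuilt from GENCODE release 44 (GRCh38), and PSI was computed per library from the deposited TPM. Transcripts in that release carried 98.1% of the counts in each library. AL, RI and MX events annotated there (33826, of which 12171 with both forms at 1 TPM or more on average) were fitted together with limma 3.58.1 (R 4.3.3) on log2((TPM of the first form + 0.1)/(TPM of the second form + 0.1)), in pairs of groups without covariates, with Benjamini-Hochberg adjustment over all events and a threshold of 0.05. These log2 differences understate the change of low forms. Expected counts were summed per gene, rounded and tested with edgeR 4.0.16 (quasi-likelihood, TMM, filterByExpr with a minimum count of 10) at an adjusted p of at most 0.005. The SE of edgeR fold changes was derived from the fold change and its test. With 3 libraries a side an exact permutation test cannot go below p = 0.1, so none was used. Alternatives included DESeq2 1.42.0. Scripts used Python 3.11.15, pandas 2.3.3 and pysam 0.24.0. The limma and edgeR fits were tested on simulated data, and the other steps were not.

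Named events were, per kind, those with both forms at 5 TPM or more and the largest difference from SCR in either knockdown (8 AL, 8 RI and 6 MX), the 4 with the largest difference between the knockdowns, 1 event per gene, and the events of XBP1, HNRNPH1 and ENSG00000275895. Other genes were added after their values were seen. Members, gene lists and tests were chosen with earlier results of these data known. Depth sets the precision of each TPM, and counting error of single transcripts cannot be had from these estimates. Replicates within a group differed by more than counting noise in all 9 pairs.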

Additional observations from a re-analysis of the deposited data

How the results depend on the processing

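PSI values follow Salmon's division of reads among transcripts that share most of their sequence, which was not tested against reads, and rest on a newer annotation than the one the events came from. With 3 libraries a side, counts of calls moved most. Members called by limma numbered 8 in DHX34 knockdown against SCR, 14 in UPF1 knockdown against SCR and 5 between the knockdowns. Shares of all events fitted follow in parentheses (0.279, 0.838 and 0.271% for these counts). In the first they became 2 at a minimum of 5 TPM (0.129%) and 0 with all 9 libraries in 1 fit (0.131%). In the second they became 35 with a pseudocount of 0.5 TPM (2.54%), 6 without a filter (0.148%), 22 with all 9 libraries (1.42%) and 56 with edgeR on the forms (3.08%). Between the knockdowns they became 34 with a pseudocount of 0.5 TPM (2.33%), 26 at a minimum of 5 TPM (1.68%), 20 with the arcsine square root of PSI (0.686%), 26 with all 9 libraries (1.33%), 41 with edgeR on the forms (1.96%) and 10 with splice junctions alone (0.526%). In these settings calls among all events rose and fell along with those among members. They did not in UPF1 knockdown against SCR with the arcsine square root of PSI, with 21 members (0.664%). The same held in DHX34 knockdown against SCR with splice junctions alone, with 9 members (0.198%). With 1 library left out, members called ranged from 2 to 7, 3 to 6 and 0 to 1.

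The median RI difference between UPF1 knockdown and SCR was 0.610 with splice junctions alone, 2.78 at a minimum of 5 TPM and 2.78 with 1 event per gene, a choice made after seeing the data. Between the knockdowns these medians were 0.166, -0.986 and -0.431. With 1 library left out, the medians in the order DHX34 against SCR, UPF1 against SCR and UPF1 against DHX34 lay at 0.279 to 2.18, 0.0518 to 5.20 and -4.74 to -0.669 for AL, at 0.649 to 1.55, -4.76 to -1.78 and -6.36 to -3.80 for RI, and at 0 to 2.04, 2.72 to 5.6 and -7.25 to -1.08 for MX. Members whose groups did not overlap then numbered 52 to 58, 115 to 119 and 91 to 102, since smaller groups overlap less often.

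Host genes called by edgeR in DHX34 knockdown against SCR (24) became 45 with DESeq2, 48 without a filter and 6 with length-scaled counts, and those between the knockdowns (52) became 29 with length-scaled counts. Over libraries left out they were 12 to 25, 60 to 70 against SCR for UPF1, and 34 to 70. Cleavage and polyadenylation genes called became 4 with DESeq2, 4 without a filter and 0 with length-scaled counts in DHX34 knockdown (2), 2 with length-scaled counts in UPF1 knockdown (8), and 8 with DESeq2 and 0 with length-scaled counts between the knockdowns (4). Over libraries left out these were 0 to 2, 3 to 8 and 0 to 5. IRE1 and XBP1 genes called became 0, 3 and 0 with length-scaled counts, and 0 to 1, 3 to 5 and 2 to 4 over libraries left out.

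Replicate numbers did not pair the libraries: same-numbered libraries correlated in their deviations at -0.0442 to 0.0902, 0 of 9 pairs over 0.1, and others at -0.0912 to 0.0836. With the replicate number as a block, members called by limma were 0 in all 3 comparisons, as were all events, with an adjusted p of 0.311 for each of the 5 calls between the knockdowns. Host genes called were then 15 in DHX34 knockdown against SCR, cleavage and polyadenylation genes 0 in DHX34 knockdown and 0 between the knockdowns, and IRE1 and XBP1 genes 0 in DHX34 knockdown. Of the values of events named by the rule under these alternatives, 810 stayed on their side of the threshold or, where untested, within 1 SD between replicates, 17 moved by more, 15 lost and 21 gained a call. The called log2 ratio of RPL10A between the knockdowns reversed, from -1.98 to 0.37, with splice junctions alone, and the cause was not tested. PSI differences carry no call, and 16 of 529 changed sign, 5 with splice junctions alone and 11 with a library left out, as did 2 uncalled log2 ratios (ANKRD10 and NPIPA9) with a library left out.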
